A study of Mus musculus with 12 samples.

Results

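Complexes II to V of the mitochondrial respiratory chain are built largely from proteins encoded in the nucleus, and the mRNAs of these proteins were followed in colonic epithelial cells that carried or lacked the transcription factor TFEB. The genes were taken by name: Sdha, Sdhb, Sdhc and Sdhd for complex II, symbols that begin with Uqcr and Cyc1 for complex III, Cycs for cytochrome c, Cox4 to Cox8 symbols for complex IV, and Atp5 symbols for complex V. They numbered 53 of the 47632 genes in each table, of which 4 belonged to complex II, 9 to complex III, 1 to cytochrome c, 18 to complex IV and 21 to complex V. By role 39 were structural subunits, 7 were isoforms best known from other tissues, 4 were pseudogenes and 3 were related proteins (Cox7a2l, Atp5s and Atp5sl).

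All 12 animals were of the strain that the labels call C57/BL6 and carried a Tfeb gene flanked by loxP sites. In Tfeb dIEC animals, Cre recombinase from the villin promoter deleted Tfeb in the epithelium of the intestine, and Tfeb flox/flox animals without Cre served as controls. Epithelial cells were released from the colon with EDTA on Day 0 (basal; animals of 10 and 12 weeks), on Day 4 during dextran sulfate sodium (DSS, a polymer in the drinking water that injures the colonic epithelium; 12 weeks) and on Day 11, after the DSS had been replaced by water (10 weeks). Littermates of the same sex were set against each other in the DSS experiments. Each group held 2 animals, and the labels give 2.5% DSS as the treatment in all 6 groups. The authors' tables hold 1 FPKM per gene, genotype and day, pooled from the animals of the group. The values therefore carry no error, no difference was checked here against the spread between animals, and the number of reads behind a value is unknown. FPKM divides the fragments of a gene by its transcript length and by the library's total, so levels of different genes are per length. The genotypes of a day were scaled together and the 3 days separately, so levels on different days are set side by side with that limit.

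Complex II (succinate dehydrogenase) passes electrons from succinate to ubiquinone and is the only respiratory complex that is also an enzyme of the citric acid cycle. Complex III (cytochrome bc1) passes them on to cytochrome c, complex IV (cytochrome c oxidase) hands them to oxygen, and complex V (ATP synthase) uses the proton gradient that complexes III and IV help to build to make ATP. Complexes III, IV and V join nuclear-encoded subunits with a few subunits encoded in mitochondrial DNA, while complex II is entirely nuclear-encoded. Mature colonocytes draw much of their energy from the mitochondrial oxidation of butyrate. TFEB is best known as a regulator of lysosomal and autophagy genes.

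Tfeb itself was listed at 0.901 FPKM in Tfeb flox/flox and 0.185 FPKM in Tfeb dIEC on Day 0. It was at 1.08 and 1.18 FPKM in Tfeb flox/flox on Days 4 and 11, and at 0 in Tfeb dIEC on both days. All 10 epithelial markers were at 1 FPKM or more, with a summed level of 29450.4 FPKM in Tfeb flox/flox and 22179 FPKM in Tfeb dIEC on Day 4. Their log2 changes on Day 4 ran from -1.48 (Cldn3) to 3.19 (Krt20), with 3 higher and 1 lower by 2-fold, against 25.6% and 26.1% of all genes. When the values of each group were divided by their sum, 5 were higher and 0 lower, against 42.2% and 15.2% of all genes. The 13 rows of immune markers summed to between 3.06 and 9.75 FPKM and the 9 stromal markers to between 2.37 and 5.87 FPKM in the 6 groups. Of the stromal markers, Col1a2, Lum and Pdgfra were at 0 in every group, and of the immune markers Adgre1 and S100a9 were. The 7 markers of mature colonic epithelium summed to 26264 FPKM in Tfeb flox/flox and 30411 FPKM in Tfeb dIEC on Day 4, when 4 of them were higher by 2-fold and 0 lower, where 25.6% of all genes were higher. On Day 0, 2 were higher and 2 lower, against 13.5% and 16.1% of all genes. The Day 4 changes ran from -0.66 (Car4) to 2.99 (Slc26a3) on the log2 scale. The part of these markers in the results below was not tested. In bulk cells, fewer cells of a type and less RNA per cell cannot be told apart. The FPKM values of all genes summed to 975316 and 973878 in Tfeb flox/flox and Tfeb dIEC on Day 0, to 1464720 and 820344 on Day 4, and to 1473490 and 827204 on Day 11. The values of Day 4 and Day 11 lay close together. Between these days 0.433% of the genes with at least 1 FPKM were lower by 2-fold on Day 11 and 0.131% were higher in Tfeb flox/flox, and 0.174% and 0.137% in Tfeb dIEC. None of the respiratory genes passed 2-fold between these days in either genotype.

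On all 3 days the respiratory genes were lower in Tfeb dIEC than in Tfeb flox/flox in most cases, and more so on Days 4 and 11. Changes are log2 ratios of Tfeb dIEC over Tfeb flox/flox with 1 FPKM added to each value, so that changes of low genes come out too small, and a gene was counted on a day if either genotype had at least 1 FPKM. By that rule 45 of the 53 genes were counted on each day. On Day 0, 22 of the 45 were lower by at least 2-fold and 2 were higher, against 16.1% and 13.5% of all genes counted. The higher genes were Sdha and Cox6b2, and Cox6b2 was counted only through Tfeb dIEC, where it is high. After a running median over transcript length was subtracted, 4 were lower in place of 22, against 11.3% of all genes. On Day 4, 33 were lower and 5 higher, against 26.1% and 25.6% of all genes. Day 11 gave the same counts, 33 and 5, against 25.7% and 26.1%. Median changes were -0.97 (Day 0), -2.25 (Day 4) and -2.23 (Day 11), where the median of all genes was 0.06, 0.06 and 0.08. A 4-fold lower level was seen for 1 gene on Day 0 (Atp5g2, listed at 0 in Tfeb dIEC), for 27 on Day 4 and for 26 on Day 11, against 3.35%, 10.3% and 10.2% of all genes. In the other direction 4-fold was passed by 0, 2 and 2 genes, against 2.09%, 7.36% and 7.46%. The respiratory genes made up 8.15% of the summed FPKM of Tfeb flox/flox on Day 4 and 2.92% of that of Tfeb dIEC.

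The complexes did not move as one. Complex II had the smallest median change, of -0.23 on Day 0, -0.27 on Day 4 and -0.37 on Day 11. Complex III was at -1.36, -2.19 and -2.11 on the same days, complex IV at -1.29, -2.45 and -2.40, and complex V at -0.86, -2.26 and -2.24. The gap between the highest and the lowest of these medians went from 1.13 (Day 0) to 2.19 (Day 4) and 2.03 (Day 11). It was 0.22, 0.99 and 0.97 on these days after the running median over transcript length was subtracted, when complex II was at -0.28 beside -0.34 for complex III and -0.36 for complex V on Day 0. Complex II had the highest median under every setting that was run, while the order of complexes III, IV and V depended on the setting. On Day 4 the share of counted genes lower by at least 2-fold was 1 of 4 in complex II, 5 of 9 in complex III, 13 of 14 in complex IV and 13 of 17 in complex V. Of all genes 26.1% were lower and 25.6% higher, so that complex II, with 1 lower and 1 higher, was near these shares. These counts include Cox6b2, Cox8b and Atp5l, which were counted only through Tfeb flox/flox, and with a filter at 10 FPKM 30 respiratory genes were lower in place of 33. Each complex held genes on both sides of 0, complex IV with Cox7a2l as its single gene on the higher side. When the values of each group were divided by their sum, the median of all genes was 0.75 on Day 4 in place of 0.06, the median of complex II turned to 0.56, and those of complexes III, IV and V were -1.36, -1.73 and -1.67. Under that scaling 30 genes were lower by 2-fold and 8 higher, against 15.2% and 42.2% of all genes, and on Day 11 the counts were 29 and 8 against 15% and 42.5%.

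**Figure D1:**
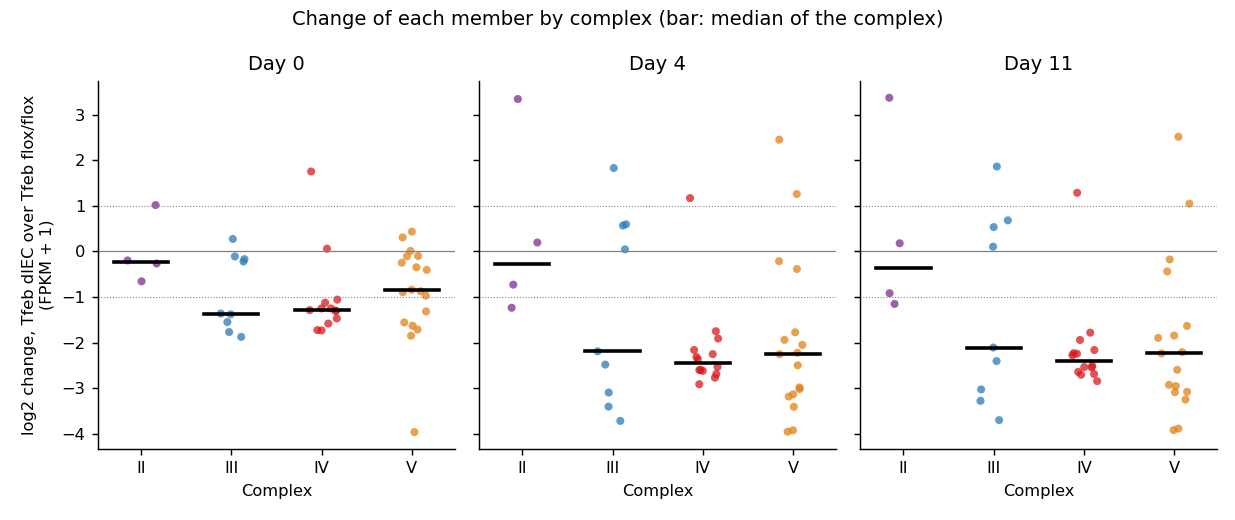
Log2 change of each respiratory gene in Tfeb dIEC over Tfeb flox/flox on Days 0, 4 and 11 (y axis, FPKM + 1), by complex (x axis). Each point is 1 gene with at least 1 FPKM in either genotype, bars are medians and dotted lines mark 2-fold; complexes III to V sit below complex II on all 3 days, with medians near -2.2 to -2.5 on Day 4.

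Promoters are printed for 4 genes that show the contrast within and between complexes, chosen after their values were seen. Sdha was higher and Sdhb lower in Tfeb dIEC on Day 4, Uqcrc1 of complex III was higher by less than 2-fold, and Atp5k of complex V was the subunit with the largest difference in the lower direction. Each sequence comes from the RefSeq table for GRCm38.p6, the assembly behind mm10, runs 5′ to 3′ on the strand of the gene, and covers 250 bases before and 50 bases after the annotated start. Capitals mark every match, on either strand, to GCATGCGC (the core of the NRF1 site), CCGGAAG (an ETS family site, as bound by GABP) or TCACGTGA (the core of the TFEB site).
Sdha (chr13:74350191-74350490, minus strand): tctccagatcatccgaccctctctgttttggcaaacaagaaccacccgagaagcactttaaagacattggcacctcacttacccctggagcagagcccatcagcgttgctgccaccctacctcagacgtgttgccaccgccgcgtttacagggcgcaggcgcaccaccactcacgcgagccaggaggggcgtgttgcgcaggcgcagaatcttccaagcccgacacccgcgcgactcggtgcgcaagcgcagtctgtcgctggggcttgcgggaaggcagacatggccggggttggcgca
Sdhb (chr4:140961021-140961320, plus strand): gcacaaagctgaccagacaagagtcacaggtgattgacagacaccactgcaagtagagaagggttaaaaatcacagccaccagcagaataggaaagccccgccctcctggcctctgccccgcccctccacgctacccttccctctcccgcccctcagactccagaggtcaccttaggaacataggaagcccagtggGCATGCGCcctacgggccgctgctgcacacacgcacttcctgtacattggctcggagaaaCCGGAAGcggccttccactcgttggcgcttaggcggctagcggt
Uqcrc1 (chr9:108936398-108936697, plus strand): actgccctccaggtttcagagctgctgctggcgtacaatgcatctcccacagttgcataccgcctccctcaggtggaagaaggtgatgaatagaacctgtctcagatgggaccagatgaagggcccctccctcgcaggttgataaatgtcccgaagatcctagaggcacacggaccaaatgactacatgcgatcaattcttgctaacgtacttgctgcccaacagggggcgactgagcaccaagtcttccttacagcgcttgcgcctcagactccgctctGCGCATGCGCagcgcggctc
Atp5k (chr5:108434350-108434649, minus strand): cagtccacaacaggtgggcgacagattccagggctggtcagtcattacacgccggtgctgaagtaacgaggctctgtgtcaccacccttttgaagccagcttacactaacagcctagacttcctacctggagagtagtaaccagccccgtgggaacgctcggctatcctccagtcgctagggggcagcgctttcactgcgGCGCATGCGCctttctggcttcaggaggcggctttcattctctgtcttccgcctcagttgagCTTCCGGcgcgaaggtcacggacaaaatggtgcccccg
The Sdha window held no match to the 3 motifs. That of Sdhb held 1 NRF1 and 1 ETS match, that of Uqcrc1 held 2 overlapping NRF1 matches after the start, and that of Atp5k held 2 overlapping NRF1 matches and 1 ETS match. Promoters were found for 38 of the 53 genes, and Uqcrc2, Atp5a1, Cyc1, Uqcrq and Cox4i1 were among those without. The NRF1 core was in the promoters of 8 of the 38 (21.1%, against 2.71% of all 32851 promoters), and the ETS site in those of 12 (31.6% against 8.86%). The units differ, since a respiratory gene counted if any of its promoters matched and the share over all is per promoter. None of the 38 had a match to the TFEB core, which 0.974% of all promoters held. Among the genes counted on Day 4, the 12 with an ETS match had a median change of -2.52 (from -3.93 to 0.20), and the 24 without had -2.0. For the NRF1 core the medians were -2.42 over 8 genes and -2.25 over 28. A match describes these letters in this window and is not a binding site, and genes with and without a match spanned overlapping ranges.

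Within complex II the 4 subunits parted. Sdha (ENSMUSG00000021577.13, chr13:74322254-74350280 of mm10, minus strand) encodes the flavoprotein that oxidises succinate. It was at 88.3 FPKM in Tfeb flox/flox and 179.9 FPKM in Tfeb dIEC on Day 0, at 15.7 against 169 FPKM on Day 4 and at 13.6 against 151 FPKM on Day 11. The Day 4 value was 10.8-fold higher in Tfeb dIEC (log2 change 3.35), the highest of all respiratory genes, and the level in Tfeb dIEC was about the same on the 3 days while that in Tfeb flox/flox was 5.61-fold lower on Day 4 than on Day 0. Sdhb (chr4:140961203-140979193, plus strand) encodes the iron-sulfur subunit that takes the electrons from Sdha in the matrix arm of the complex. It went the other way, at 533 against 338 FPKM on Day 0, 792 against 336 on Day 4 and 838 against 377 on Day 11 in Tfeb flox/flox against Tfeb dIEC, with log2 changes of -0.66, -1.24 and -1.15. Sdhc and Sdhd form the membrane anchor. Sdhc was at 34.8 against 28.8, 63.5 against 37.9 and 62.2 against 32.5 FPKM, with log2 changes of -0.27, -0.73 and -0.92. Its sign on Day 4 turned when the groups were divided by their sums (0.09). Sdhd was at 336 against 293, 282 against 324 and 278 against 315 FPKM, with log2 changes of -0.20, 0.20 and 0.18. Of the 4 subunits, Sdha alone passed 2-fold on Day 0 (1.02; 0.96 when centred on all genes and 0.70 after subtraction of the running median over length, both under 2-fold), and Sdha and Sdhb passed it, in opposite directions, on Days 4 and 11. Divided by the sums, Sdhb came to -0.40 on Day 4 and -0.32 on Day 11, under 2-fold, and Sdhd to 1.03 and 1.01, past 2-fold higher. The ratio of Sdhb to Sdha came to 6.04 in Tfeb flox/flox but 1.88 in Tfeb dIEC on Day 0, and 50.3 and 1.98 on Day 4. A ratio within a group does not depend on a scale factor common to the group. It can still carry a shift that goes with transcript length, which was 1142 nt for Sdhb and 2900 nt for Sdha. The ratios given below share this limit.

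Complex III fell into 2 sets on Day 4. The 5 small subunits were all lower by more than 4-fold. Uqcrb and Uqcrh came to -1.36 and -1.65 after division by the sums, and to -0.76 and -0.83, under 2-fold, after subtraction of the running median. Uqcrq (chr11:53427922-53430831), which sits near the ubiquinone-binding part of the complex, had the highest level of complex III in Tfeb flox/flox, at 2163, 7372 and 7180.3 FPKM on Days 0, 4 and 11. It was at 634, 694 and 738 FPKM in Tfeb dIEC, so that the 10.6-fold difference of Day 4 came with a higher control value and a nearly constant Tfeb dIEC value. Uqcr11 had the lowest change of the complex, -1.88 on Day 0 and -3.72 on Day 4, at 289.7 against 78.2 and 957 against 71.7 FPKM. Uqcr10, at 1292 against 440.2 and 3974 against 463 FPKM, changed by -1.55 and -3.10. Uqcrh, the hinge protein beside cytochrome c1, was at 1752 against 672 and 3672 against 655 FPKM (-1.38 and -2.48). Uqcrb was at 358 against 139 and 724 against 158 FPKM (-1.36 and -2.19), and 56.6% of its 50-base sequences occurred in no other annotated gene. The other 4 genes encode the larger parts of the complex and none was lower by 2-fold on any day. Cyc1 (cytochrome c1, which hands electrons to cytochrome c) was at 826 against 766 FPKM on Day 0, 719 against 742 on Day 4 and 731 against 786 on Day 11, with changes between -0.11 and 0.10. Uqcrfs1 (the Rieske iron-sulfur protein) was at 534 against 475, 303 against 449.8 and 301 against 484 FPKM (-0.17, 0.57 and 0.68). The core proteins were on the higher side of 0 on Day 4. Uqcrc1 was at 521 against 447, 322 against 487 and 322 against 468 FPKM (-0.22, 0.60 and 0.53). Divided by the sums, Uqcrc1 was at 1.43 and Uqcrfs1 at 1.40 on Day 4, both past 2-fold higher. Uqcrc2 was at 227 against 275, 81.4 against 292 and 80.2 against 295 FPKM (0.27, 1.83 and 1.86), and 75.2% of its 50-base sequences were unique to it. The ratio of Uqcrq to Uqcrc2 was 9.53 and 2.31 in Tfeb flox/flox and Tfeb dIEC on Day 0, and 90.5 and 2.37 on Day 4. That of Uqcrfs1 to Uqcrc2, both large, moved less, at 3.72 and 1.54 on Day 4.

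Cytochrome c, encoded by Cycs, shuttles electrons between complexes III and IV. It was at 128 against 79.9 FPKM on Day 0, 351 against 100.3 on Day 4 and 283 against 90.6 on Day 11, with changes of -0.67, -1.80 and -1.63. Divided by the sums, the changes of Days 4 and 11 were -0.97 and -0.80, under 2-fold. On Days 4 and 11 its change was nearer to the medians of complexes III to V than to that of complex II. Its sequence is shared with processed copies: 71.5% of its 50-base sequences were unique, and the level is uncertain to that extent.

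All 10 structural subunits of complex IV were lower on each day, by at least 2-fold in every case. After the running median over length was subtracted, 1 of 13 counted genes of the complex was lower by 2-fold on Day 0, against 11.3% of all genes so treated. On Day 4, 7 of 14 were lower, against 20.4%. Cox5a came to -0.95 on Day 11, under 2-fold, when the groups were divided by their sums. Cox4i1 (chr8:120668222-120674207), a subunit through which ATP regulates the enzyme, had the highest level of all respiratory genes in every group. It was at 8562, 20447 and 21452 FPKM in Tfeb flox/flox on Days 0, 4 and 11 and at 3596, 3954 and 4412 FPKM in Tfeb dIEC, with changes of -1.25, -2.37 and -2.28. Cox8a was at 3989.6 against 1676, 11446 against 1774 and 13777 against 2132 FPKM (-1.25, -2.69 and -2.69). Cox6b1, which faces the cytochrome c side, was at 3294 against 1338, 9814 against 1692 and 9135 against 1571 FPKM (-1.30, -2.54 and -2.54). Cox6a1 was at 2459 against 886, 6066 against 985 and 6465 against 1131 FPKM (-1.47, -2.62 and -2.51). These 4 were the highest of the complex in level in all 6 groups. Cox7b, which is lower in level, had the largest Day 4 difference of the complex, at 746 against 305 and 2659 against 351 FPKM (-1.29 and -2.92), and Cox5a the smallest among the subunits, at 1400.2 against 672 and 3010.2 against 799 FPKM (-1.06 and -1.91). The ratio of Cox5a to Cox4i1 stayed between 0.146 and 0.206 in the 6 groups. Cox5b, Cox6c, Cox7a2 and Cox7c lay between, with Day 4 levels of 3449 against 568, 2966 against 487, 1091 against 228 and 97.6 against 13.4 FPKM and changes from -2.77 to -2.25. Cox5a, Cox5b and Cox7c each had under 80% unique sequence.

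The isoforms of complex IV subunits separate the tissues in which they are used, and in these cells 1 form of each pair carried nearly all of the signal. Cox4i2 (lung), Cox6a2 (heart and skeletal muscle), Cox7b2 and Cox8c (testis) were listed at 0 in all 6 groups. Cox8b, the muscle form, was at the identical value of 3.48 FPKM in Tfeb flox/flox on Days 4 and 11 and at 0 elsewhere. Cox6b2, known from testis, was at 0 in Tfeb flox/flox and 2.38 FPKM in Tfeb dIEC on Day 0, and at 2.37 and 2.85 FPKM in Tfeb flox/flox and 0 in Tfeb dIEC on Days 4 and 11. Cox7a1, the heart and muscle form, was the exception. It was at 79.4 against 25.8 FPKM on Day 0, 72.7 against 13.8 on Day 4 and 71.3 against 14.4 on Day 11, against 383 against 154, 1091 against 228 and 1277 against 268 FPKM for Cox7a2, and changed by -1.58, -2.32 and -2.23. Cox7a2l, a related protein that joins complexes III and IV into a supercomplex and is no subunit of the free enzyme, was the only complex IV gene on the higher side on Days 4 and 11. It was at 99.2 against 103 FPKM on Day 0, 41.3 against 94.3 on Day 4 and 41.4 against 102 on Day 11 (0.06, 1.17 and 1.29). The ratio of Cox6a1 to Cox7a2l reached 147 in Tfeb flox/flox but 10.4 in Tfeb dIEC on Day 4.

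**Figure D2:**
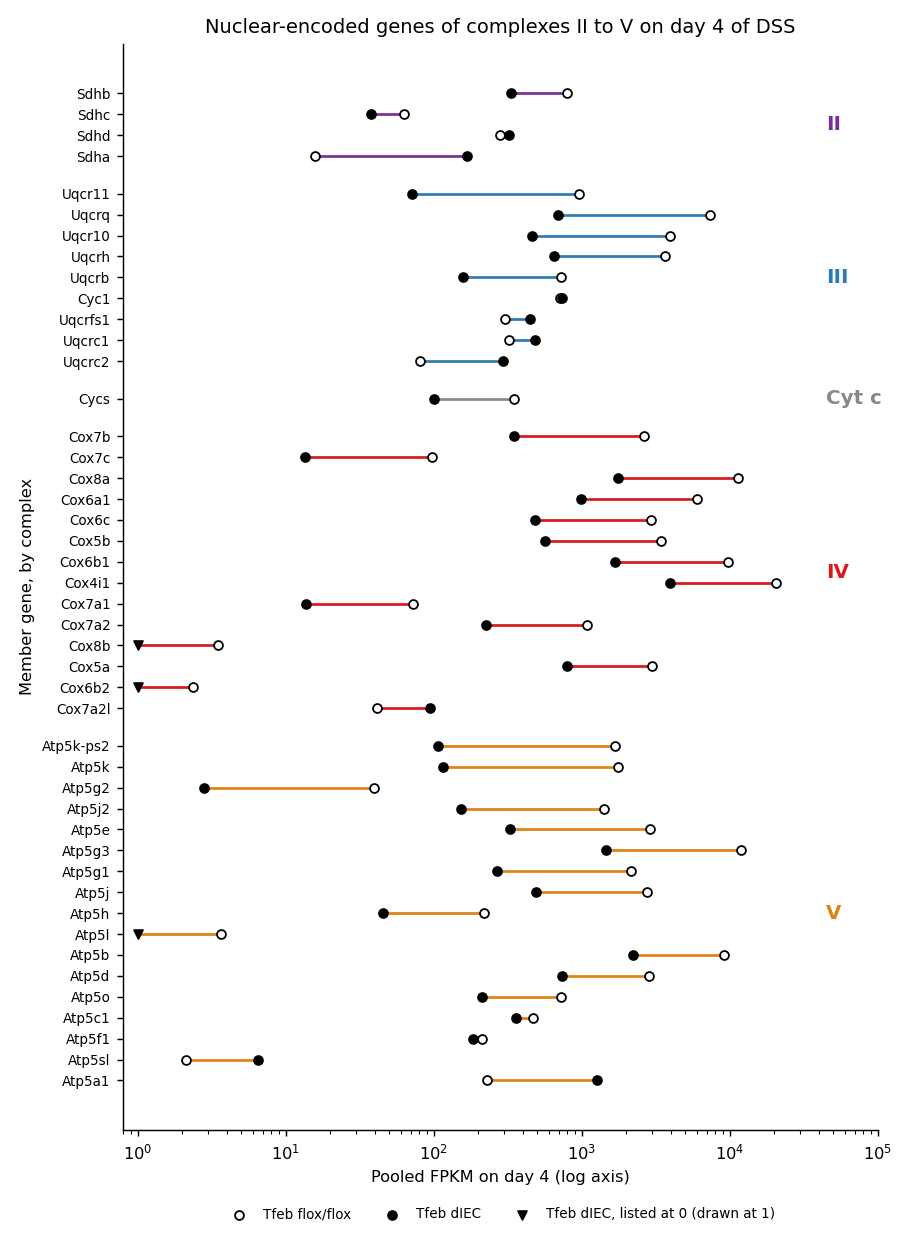
Pooled FPKM on Day 4 (x axis, log scale) of the 45 genes with at least 1 FPKM in either genotype (y axis, by complex and by change). Open circles are Tfeb flox/flox, filled circles Tfeb dIEC and triangles a Tfeb dIEC value listed at 0; the line between the circles runs to the left for 36 genes and to the right for 9, among them Sdha (15.7 to 169) and Atp5a1 (231 to 1272).

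In complex V the catalytic head was split between its 2 main subunits. Atp5a1 (subunit alpha) was at 991 against 1340.0 FPKM on Day 0, 231 against 1272 on Day 4 and 238 against 1367 on Day 11, with changes of 0.43, 2.45 and 2.52. Atp5b (subunit beta, chr10:128083273-128090391), which alternates with alpha in the same ring and holds the catalytic sites, was at 2938 against 2219 FPKM on Day 0, 9219 against 2223 on Day 4 and 8957 against 2402 on Day 11, with changes of -0.40, -2.05 and -1.90. Atp5b exceeded Atp5a1 2.96-fold in Tfeb flox/flox but 1.66-fold in Tfeb dIEC on Day 0, and 39.9-fold and 1.75-fold on Day 4. In Tfeb dIEC the ratio hardly moved from Day 0 to Day 11 (1.76). The subunits of the central stalk differed among themselves. Atp5c1 (gamma) was at 434 against 403 FPKM on Day 0 and 473 against 362 on Day 4 (-0.10 and -0.39), and its sign turned on Days 4 and 11 when the groups were divided by their sums (0.45 and 0.39). Atp5d (delta) was at 1338 against 718 and 2851 against 742 FPKM (-0.90 and -1.94), and Atp5e (epsilon) at 725 against 233 and 2903 against 329 FPKM (-1.63 and -3.14). In the peripheral stalk, Atp5f1 (subunit b) was at 253 against 198 and 213 against 184 FPKM (-0.35 and -0.21; 0.62 on Day 4 and 0.65 on Day 11 after division by the sums). Atp5h (subunit d), Atp5j (F6) and Atp5o (OSCP) were at 221 against 45.4, 2787 against 491 and 727 against 212 FPKM on Day 4, with changes of -2.26, -2.50 and -1.78. Atp5o came to -0.94 after division by the sums and -0.98 after subtraction of the running median, both under 2-fold. Atp5j overlaps exons of Gabpa on the other strand, and the library kit does not mark strand, so that reads of the overlap cannot be told apart. The same holds for Atp5a1 with Haus1, Uqcrc2 with Pdzd9 and Cox4i1 with Emc8 among the 12 respiratory genes with at least 1 FPKM in any group that share exon bases with another gene.

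The membrane part of complex V holds the c ring and the subunits around it. The c ring, which turns as protons pass, is made of 1 protein encoded by 3 genes. Atp5g3 (chr2:73908447-73911326) was the highest of these, at 4392 against 1490.5 FPKM on Day 0, 11924 against 1467 on Day 4 and 10961 against 1438 on Day 11 (-1.56, -3.02 and -2.93). Atp5g1 was at 612 against 245, 2142 against 269.5 and 2096 against 269 FPKM (-1.32, -2.99 and -2.96). Atp5g2 was at 14.6 FPKM in Tfeb flox/flox and listed at 0 in Tfeb dIEC on Day 0, and at 39.7 against 2.83 and 41.7 against 3.48 FPKM on Days 4 and 11. Since 12.6% of its 50-base sequences were unique, its level is uncertain. All 3 were thus lower in Tfeb dIEC on each day. Atp5k (subunit e), which takes part in the pairing of ATP synthases that shapes the cristae, was at 356 against 97.9, 1766 against 115 and 2035 against 136 FPKM, with changes of -1.85, -3.93 and -3.89. Its Day 4 change was the lowest of the structural subunits. Atp5j2 (subunit f) was at 393 against 119 and 1407 against 154 FPKM (-1.71 and -3.19). Atp5l (subunit g) was listed at 1.57 against 1.40 FPKM on Day 0, at 3.68 and 3.72 in Tfeb flox/flox on Days 4 and 11, and at 0 in Tfeb dIEC on both, with 15.2% unique sequence. The pseudogene Atp5k-ps2 was at 209 against 259.6 FPKM on Day 0, 1673 against 107 on Day 4 and 1573 against 103 on Day 11. The pseudogenes Atp5l-ps1, Atp5l-ps2 and Atp5l2-ps were at 0 in every group. The 2 related genes were low: Atp5sl was at 8.74 against 8.82 and 2.12 against 6.47 FPKM (0.01 and 1.26), and Atp5s at 1.31 against 0.946 and 0.447 against 0.632 FPKM.

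The differences of Days 4 and 11 came with a move of the control values. From Day 0 to Day 4, 28 of 46 counted genes were at least 2-fold higher in Tfeb flox/flox and 5 were lower, against 17.5% and 25.7% of all genes. The 28 include Cox6b2 and Cox8b, which were listed at 0 on Day 0 and counted only through Day 4. In Tfeb dIEC 1 of 44 was higher and 3 were lower, against 9.26% and 15.6% of all genes. The higher gene was Atp5g2, listed at 0 on Day 0. The lower ones were Atp5k-ps2 and, listed at 0 on Day 4, Cox6b2 and Atp5l. From Day 0 to Day 4 the median change was 1.23 in Tfeb flox/flox but 0.06 in Tfeb dIEC, where the median of all genes was -0.20 in both. The contrast was smaller when the groups were divided by their sums (0.65 and 0.31) and when the running median over transcript length was subtracted (0.70 and 0.21). Among the 39 structural subunits, 37 stayed within 2-fold in Tfeb dIEC and 11 did so in Tfeb flox/flox. Of the 9617 genes of all kinds counted in each genotype, 7223 and 5462 stayed within 2-fold. The subunits outside 2-fold in Tfeb dIEC were Atp5l and Atp5g2, which were listed at 0 on 1 of these days. The summed FPKM of the respiratory genes in Tfeb flox/flox was 47045 on Day 0 and 119379 on Day 4, and in Tfeb dIEC it was 22831 and 23922. By complex, the median Day 4 change in Tfeb flox/flox was 0.16 for complex II, 1.01 for complex III, 1.46 for complex IV and 1.16 for complex V. In Tfeb dIEC the same medians were 0.07, 0.07, 0.15 and -0.07. The 5 genes lower by 2-fold on Day 4 in Tfeb flox/flox were Sdha, Uqcrc2, Cox7a2l, Atp5a1 and Atp5sl, the same 5 that were higher by 2-fold in Tfeb dIEC on Days 4 and 11; both comparisons share the Tfeb flox/flox value of Day 4. The tables of Day 0 and Day 4 were scaled separately, and the day, the age of the animals and the table cannot be told apart.

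**Figure D3:**
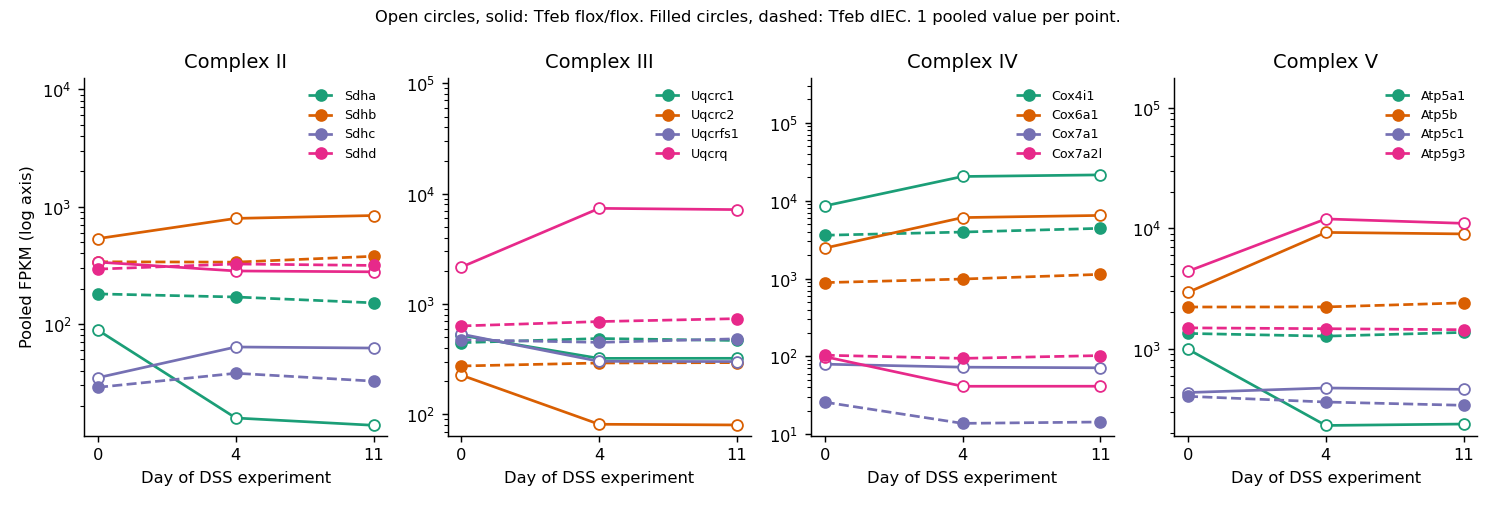
Pooled FPKM (y axis, log scale) of 4 genes of each complex on Days 0, 4 and 11 (x axis). Open circles with solid lines are Tfeb flox/flox and filled circles with dashed lines Tfeb dIEC; the dashed lines are nearly flat except that of Cox7a1 (25.8 to 13.8 on Day 4), while the solid lines rise for Uqcrq, Cox4i1, Atp5b and Atp5g3 and drop for Sdha, Uqcrc2 and Atp5a1.

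The genes on the lower and the higher side differed in transcript length. All 28 respiratory genes with a median annotated transcript under 1000 nt were lower by at least 2-fold on Day 4, with a median change of -2.57 (from -3.96 to -1.75). The 17 genes of 1000 nt or longer had a median of 0.05 (from -2.99 to 3.35), with 5 lower and 5 higher by 2-fold. Of all genes in the length classes from 1000, 1500 and 2000 nt, 24.8%, 14.8% and 11.6% were lower. In the same classes 211 of 1249, 301 of 1225 and 1510 of 4420 were higher. The -2.99 is that of Atp5g1, whose annotated transcripts differ in length. The 28 include Cox6b2, Cox8b and Atp5l, whose Tfeb dIEC values were listed at 0. Of all genes 65.4% at 200 to 599 nt and 49.6% at 600 to 999 nt were lower by 2-fold on Day 4, and of other genes with at least 100 FPKM 93.1% and 78.4% were. On Day 0 the medians were -1.36 and -0.21, and on Day 11 -2.54 and 0.10. Across the 45 genes, which all come from the same pair of pooled samples, Spearman's rho of the Day 4 change with transcript length was 0.68, and across 9353 genes of all kinds it was 0.38. Genes outside the respiratory chain moved with length too. Of those with at least 100 FPKM in either genotype, the 232 of 200 to 599 nt had a median change of -2.46 on Day 4 and the 130 of 2000 nt or longer had 1.63, where the respiratory genes of 200 to 599 nt had -2.69. The median transcript of the counted genes was 1612 nt in complex II, 535 nt in complex III, 588 nt in complex IV and 748 nt in complex V. Length and complex therefore ran together, and the part of length in the genotype difference was not tested.

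Subtracting the running median over transcript length (a window of 301 genes) lowered the size of most changes. The median of the respiratory genes was then -0.42 on Day 0, -1.03 on Day 4 and -1.02 on Day 11. On Day 4, 23 of the 45 were lower by 2-fold and 4 were higher, against 20.4% and 20.2% of all genes so treated. Day 11 also gave 23 and 4, against 20.6% and 20.2%. On Day 0, 4 were lower and 2 higher, against 11.3% and 11.4%, so that the Day 0 count of 22 did not hold under this setting. The complex medians of Day 4 became -0.32 for complex II, -0.76 for complex III, -1.13 for complex IV and -1.31 for complex V. Some genes stood far from others of their length. Atp5b (1916 nt) stood at -2.45 from the running median, Cycs (3123 nt) at -2.44 and Cox7b (1001 nt) at -2.31. Atp5g1 stood at -3.73, but its 2676 nt is a median over annotated transcripts of up to 4715 nt. That median may be the length of none of them, so its distance is uncertain. In the other direction Sdha (2900.0 nt) was at 2.59, Atp5a1 (2572 nt) at 1.82, Cox7a2l (1102 nt) at 1.73 and Uqcrc2 (1896 nt) at 1.42. The split between Atp5a1 and Atp5b and that between Sdha and Sdhb (-0.92) kept their directions.

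**Figure D4:**
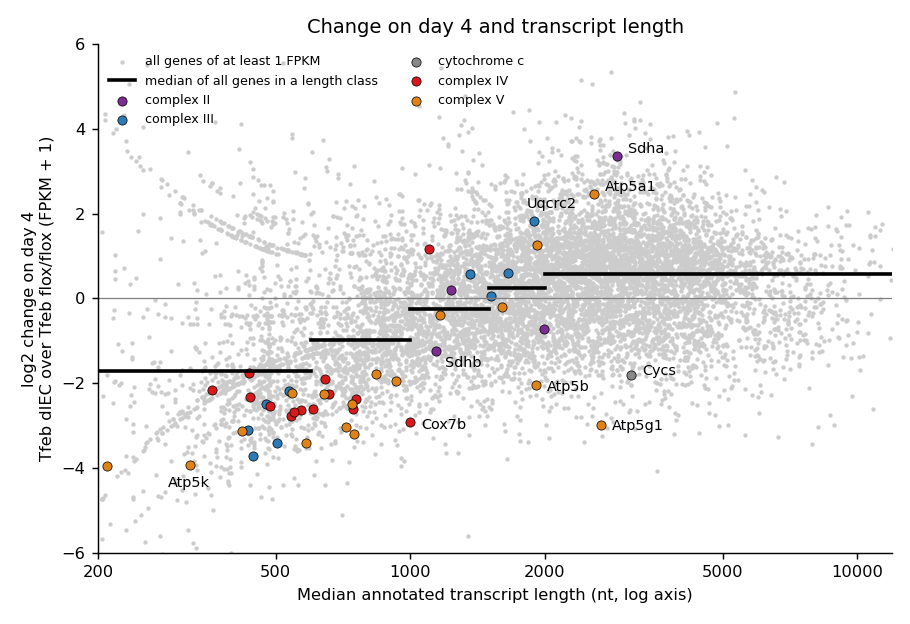
Log2 change on Day 4 (y axis, shown from -6 to 6) against the median annotated transcript length (x axis, log scale). Grey points are all genes with at least 1 FPKM in either genotype, black lines their medians in 5 length classes, and coloured points the respiratory genes by complex; nearly all short genes of complexes III to V lie below the grey medians, and Sdha, Atp5a1 and Uqcrc2 above.

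Other mitochondrial genes were compared with the same rule, to be read against the 26.1% of all genes that were lower and the 25.6% that were higher by 2-fold on Day 4. The nuclear-encoded subunits of complex I, the NADH dehydrogenase at the entry of the chain, resembled complexes III to V: 28 of 36 counted genes were lower by 2-fold on Day 4 and 2 higher, with a median change of -2.44. The lowest change was that of Ndufb4, at 23.8 against 0.728 FPKM. Of the 6 partners of complexes III to V that are encoded in mitochondrial DNA, mt-Co3 was lower and mt-Atp8 higher by 2-fold on Day 4, and the median was 0.20. Divided by the sums, the median was 1.02, with 0 lower and 3 higher, where 15.2% of all genes were lower and 42.2% higher. The 2 highest in level were mt-Co1, a catalytic subunit of complex IV, at 22578 against 26136 FPKM on Day 0 and 8978 against 16844 on Day 4, and mt-Cytb of complex III, at 11914 against 14293 and 7470.0 against 11276 FPKM. On Day 4 their changes were 0.91 and 0.59, opposite in sign to the medians of the nuclear-encoded genes of complexes IV and III, while mt-Co2 and mt-Co3 of complex IV were at -0.97 and -1.13, on the side of the nuclear-encoded genes.

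Assembly factors of complexes II to V were spread to both sides, with 11 of 27 counted genes lower and 5 higher by 2-fold on Day 4 and a median of -0.67, which became 0.03, with 7 lower and 8 higher, when the groups were divided by their sums (15.2% and 42.2% of all genes). The 5 higher genes make up a smaller share than the 25.6% of all genes. Uqcc1, which serves complex III, was at 2.66 against 6.53 FPKM on Day 0 and 3.27 against 89.4 on Day 4, and Cox20, which serves complex IV, at 77.6 against 29.3 and 214 against 25.0 FPKM. Atpif1, the inhibitor of ATP synthase, was at 1834 against 588, 4988 against 641 and 5631 against 824 FPKM on Days 0, 4 and 11 (-1.64, -2.96 and -2.77). The phosphate carrier Slc25a3, which supplies the enzyme, was at 837 against 1066 FPKM on Day 4. Of the regulators of respiratory genes, 3 of 9 counted were higher by 2-fold on Day 4 and none lower, a share near the 25.6% of all genes. They were Gabpa at 0.280 against 4.39 FPKM, Pprc1 at 0.451 against 2.42 FPKM and Tfam, which packages mitochondrial DNA, at 7.13 against 16.2 FPKM. Gabpa and Pprc1 were counted only through Tfeb dIEC, where they are high, and Gabpa shares exon bases with Atp5j on the other strand. Nrf1 was at 4.29 against 9.67 FPKM on Day 0 and 3.51 against 4.35 on Day 4, Yy1 at 2.29 against 1.29, Esrra at 3.01 against 3.60, Gabpb1 at 3.11 against 1.97, Ppargc1a at 0.715 against 1.49 and Ppargc1b at 1.38 against 0.965 FPKM on Day 4. The median of the list was 0.25, and -0.32 after the running median over length was subtracted. In the latter case 1 was lower and 2 were higher by 2-fold, against 20.4% and 20.2% of all genes.

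Mitochondrial genes of other function lay on the opposite side. Of 10 counted markers of other mitochondrial functions, 7 were higher by 2-fold in Tfeb dIEC on Day 4 and none was lower, with a median of 1.26. Hspa9, a matrix chaperone, had the highest change, at 2.35 against 24.9 FPKM, and Phb the lowest, at 8.93 against 5.27 FPKM. Their median transcript was 1628 nt long. Ribosomal proteins lay on the same side as most respiratory genes. Of 85 counted genes of the cytosolic ribosome 71 were lower by 2-fold on Day 4 (median -2.21), and of 78 of the mitochondrial ribosome 41 were lower and 8 higher (median -1.03, or -0.23 after division by the sums). After that division 54 were lower and 6 higher in the cytosolic ribosome, and 26 and 11 in the mitochondrial ribosome. Of all genes 15.2% were lower and 42.2% higher. After the running median over length was subtracted, the medians were -1.30 for complex I, -1.13 for the cytosolic ribosome, -0.88 for the mitochondrial ribosome and 1.0 for the markers of other mitochondrial functions. The lower level of complexes III to V was thus also seen in complex I and the cytosolic ribosome, with medians of like size, and no test of a difference between these lists was made.

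**Figure D5:**
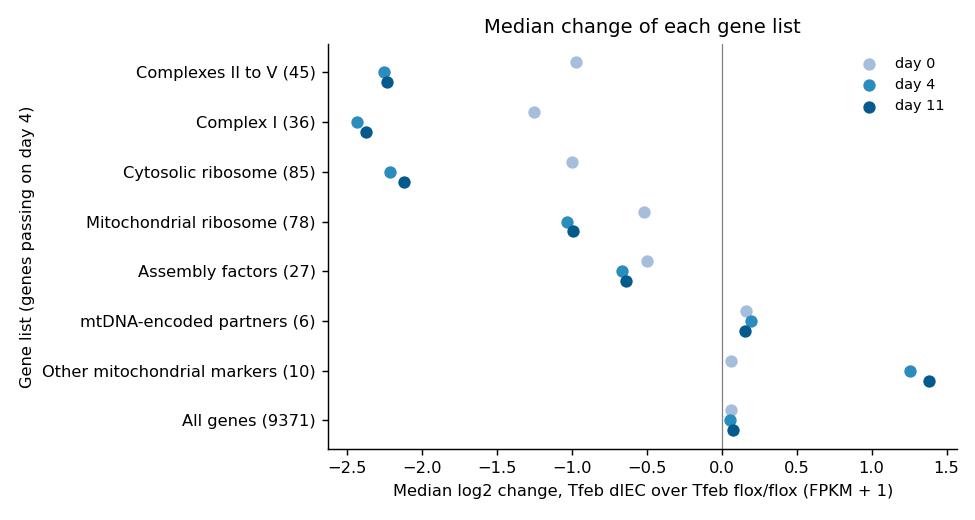
Median log2 change in Tfeb dIEC over Tfeb flox/flox (x axis, FPKM + 1) of 7 gene lists and of all genes (y axis, with the number counted on Day 4), on Days 0, 4 and 11. Complexes II to V, complex I and the cytosolic ribosome sit between -2.1 and -2.5 on Days 4 and 11, and the markers of other mitochondrial functions above 1.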

How the data were processed

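Epithelial RNA of 2 animals per genotype and day was made into cDNA by a variation of SmartSeq2, which does not mark strand, and sequenced as paired ends on a MiSeq. The authors aligned the reads to mm10 with TopHat2 (2.0.14) and deposited 1 Cuffdiff (2.1.1) table per day, with a pooled FPKM per genotype (versions per the submitters' processing notes). The fold changes, p-values and status columns of these tables were not used. Their FPKM columns give no counts, so depth is unknown, and no interval or test was made here.

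Changes were computed as log2(FPKM + 1) differences over all 47632 genes of a table. Genes under 1 FPKM in both values compared were left out, and 2-fold was the size counted. The calculation was tested on simulated data. Transcript lengths, overlaps and the share of 50-base sequences unique to a gene come from the GENCODE vM21 annotation and transcripts, on the mm10 assembly, and promoters from RefSeq. Alternatives were other pseudocounts, low-value filters, folds and scalings, subtraction of a running median over transcript length, structural subunits only, and leaving out genes under 80% unique sequence. Calculations ran in Python 3.11.15 (pandas 2.3.3, numpy 2.4.6, scipy 1.17.1; figures in matplotlib 3.10.9).

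The genes and lists were chosen with earlier results of these data known. Named by rule were, in each complex, the 3 genes of highest mean FPKM and those with the lowest and highest Day 4 change, all Sdh genes, Cyc1, Cycs, genes whose Day 4 change opposed the median, and the Cox and Atp5g isoform families, and in other lists the extremes and the regulators from 1 FPKM. A result that the rule names is not reported here. The remaining respiratory genes were added to account for each one. Genes shown as ratios, promoters or departures from the running median, and mt-Co1, mt-Co2 and mt-Cytb, were chosen after their values were seen. The methods of the study give a slightly lower DSS concentration than the labels.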

Additional observations from a re-analysis of the deposited data

Results flagged for a closer look

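For 3 genes the genotype difference, or the change from Day 0 to Day 4 in the genotypes, ran in opposite directions by at least 1.5-fold each way on the log2(FPKM + 1) scale, and none of these differences was tested. Cox6b2 was at 2.378 FPKM in Tfeb dIEC on Day 0, and at 2.368 and 2.846 FPKM in Tfeb flox/flox on Days 4 and 11, and listed at 0 in the other 3 groups. Atp5k-ps2 was higher on Day 4 than on Day 0 in Tfeb flox/flox (log2 change 2.992) and lower in Tfeb dIEC (-1.275). It is a pseudogene of Atp5k, and Atp5k itself had log2 changes of 2.31 and 0.23 over the same days. Atp5l was at 1.573 FPKM in Tfeb flox/flox and 1.401 FPKM in Tfeb dIEC on Day 0, at 3.677 and 3.723 FPKM in Tfeb flox/flox on Days 4 and 11, and listed at 0 in Tfeb dIEC on both. These levels are low for Cox6b2 and Atp5l, and 15.2% of the 50-base sequences of Atp5l were unique to it.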

How the results depend on the processing

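No paired analysis was possible because each genotype has 1 pooled value per day, and for the same reason no replicate could be left out. The median of all respiratory genes stayed negative on each day under every alternative, while that of complex II turned from -0.27 to 0.56 on Day 4 and from -0.37 to 0.45 on Day 11 when the groups were divided by their sums. The cause was not tested for this and the values below. Division by the sums gave medians of the respiratory genes of -1.51 on Day 4 and -1.45 on Day 11, 8 genes higher by 2-fold on each of these days (against 42.2% and 42.5% of all genes), and Day 4 over Day 0 medians of 0.65 (Tfeb flox/flox) and 0.31 (Tfeb dIEC). Subtraction of the running median over length gave 4 lower genes on Day 0, medians of -1.03 and -1.02 on Days 4 and 11, gaps between the complexes of 0.22, 0.99 and 0.97 on Days 0, 4 and 11, and Day 4 over Day 0 medians of 0.70 and 0.21 in Tfeb flox/flox and Tfeb dIEC. Centring on the median of all genes gave 0.26 for the latter and 1 higher gene on Day 0. The higher genes on Day 0 were also 0 with a pseudocount of 5 FPKM, 1 with a filter at 10 FPKM and 1 among structural subunits, where they were 3 on Days 4 and 11. At 4-fold 1 gene was lower and 0 higher on Day 0, and 2 were higher on Days 4 and 11. With 1 pooled value per group and no read counts, low values such as those of Cox6b2, Cox8b and Atp5l cannot be given a precision.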
